A study of Mus musculus with 12 samples.

Results

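DNA repair genes were followed in 2 epithelial cell populations of the mouse small intestine at 2 ages. The members are the genes of the count table whose symbols open with Fanc, Brca1 or Brca2, Rad5 and a digit, Xrcc, Ercc, Msh or Mlh and a digit, Pold and a digit, Pole, Lig1, Lig3 or Lig4, leaving out names that contain -ps. This rule, which reads symbols and no measured value, found 57 of 34245 genes: 15 of homologous recombination, 9 replicative polymerase subunits with *Lig1*, 8 of the Fanconi anaemia core complex, 2 of the Fanconi ID2 complex, 7 of mismatch repair, 7 of nucleotide excision repair, 4 of end joining, 2 of single-strand break repair, and 3 that carry such a name but stand apart by role (*Ercc6l*, *Ercc6l2* and *Fancd2os*).

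Poly(A) RNA was sequenced from stem cells of the intestinal crypt (ISC) and enterocytes of the adult villus (AE) of male C57BL/6 mice, with 3 libraries each of young ISC, aged ISC, young AE and aged AE. All mice, young and aged, carried EGFP with IRES and CreERT2 knocked into the *Lgr5* gene, and no group was treated. The sample labels give the groups as young and old with no age. The study's methods list the age of each mouse in weeks, with 3 mice in each cohort. The study describes the young mice as middle-aged, and so not juvenile, and the aged mice as old. It presents this comparison as one of late aging. The titles of 8 of the 12 samples open with the code of a different group from the 1 they go on to spell, and columns were grouped by the age and cell type written in the column name. ISC were the GFP-high cells of crypt suspensions, a gate that rests on the *Lgr5* promoter, and AE were the villus cells high in Epcam and negative for CD45 and CD31, a gate that holds all villus epithelium and not enterocytes alone.

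Cells repair DNA by pathways that divide the work by the kind of lesion. Breaks of both strands are rejoined end to end by the Ku proteins and ligase IV, or copied from the sister chromatid by homologous recombination, in which BRCA1 and BRCA2 prepare the broken end to invade its copy. Crosslinks that stall replication forks are unhooked by the Fanconi pathway, whose core complex ubiquitinates the FANCD2-FANCI pair. Mismatch repair removes copying errors behind the fork, nucleotide excision repair cuts out bulky or UV-induced lesions, and DNA polymerases delta and epsilon do the copying both in replication and in the refilling of gaps. Stem cells of the crypt divide throughout life, while enterocytes of the villus have left the cell cycle and are shed within days.

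Libraries held 11893817 to 26796461 counts, except for young AE library 3 with 110794420. Levels are CPM, counts per 1000000 counts of the TMM-scaled library size, and 3 counts, taken as the limit of detection, were 0.0359 CPM in that library and 0.0842 to 0.327 CPM in the other 11. This limit, like any error of counting, takes no account of PCR amplification before sequencing, since no molecular identifiers were used. Libraries are numbered 1 to 3 within a group in column order. The labelled cell types were borne out by markers: all 9 stem cell markers were called lower and all 12 enterocyte markers higher in AE at both ages, with stem cell sums of 4656 to 6762 CPM in ISC and 109 to 522 CPM in AE. The 4 goblet cell markers were also called higher in AE, with sums of 21285 to 40429 CPM against 1105 to 1841 CPM in ISC. The endothelial marker *Cdh5* was at 0 in all libraries, and the 4 B and plasma cell markers added up to at most 1.34 CPM. Other non-epithelial markers were present, with *Pecam1* at 1.15 to 1.97 CPM in AE. The 7 T cell and intraepithelial lymphocyte markers summed to 17.1 to 52.7 CPM in AE. In ISC they summed to at least 7.33 CPM in young and at most 2.70 CPM in aged libraries. All 7 were called higher in AE in aged mice and 1 in young mice, and none was called by age in ISC. Young AE library 2 stood apart from the other 5 AE libraries in transcripts of crypt cells, dividing, stem and Paneth cells alike. It held 414 CPM of 12 proliferation markers against 51.5 to 137 CPM, 194 CPM of *Mcm2* to *Mcm7* against 42.6 to 57.3 CPM, 522 CPM of stem cell markers against 109 to 197 CPM, and 161 CPM of 4 Paneth cell markers against 33.5 to 66.9 CPM.

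AE were compared with ISC to see which repair genes stay with the dividing stem cell and which the differentiated cell keeps. Most DNA repair genes were lower in AE. Of the 55 members tested in young mice, 43 were called lower in AE and 2 higher (FDR under 0.05, quasi-likelihood F test of edgeR, adjusted by Benjamini-Hochberg over all genes). Of all 16681 genes tested there, 25.4% were called lower and 27.7% higher. In aged mice the same 43 of 54 members tested were lower and the same 2 higher, where 34.1% and 30.0% of all 15855 genes were called lower and higher. Of the members left out, *Fancd2os* and *Rad51ap2* were under the filter of 10 counts at both ages and *Msh4* in aged mice. Log2 fold changes, AE over ISC, had a median of -1.56 over members and 0.15 over all genes in young mice, and -1.92 over members and -0.13 over all genes in aged mice. With 3 libraries a group an exact permutation test of 1 gene cannot go below P = 0.1, so the test rests on the fit across all genes. The study's methods list 3 mice for each age, which makes the libraries of a group separate animals. In bulk RNA, fewer cells that express a gene and less of its RNA per cell cannot be told apart.

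**Figure D1:**
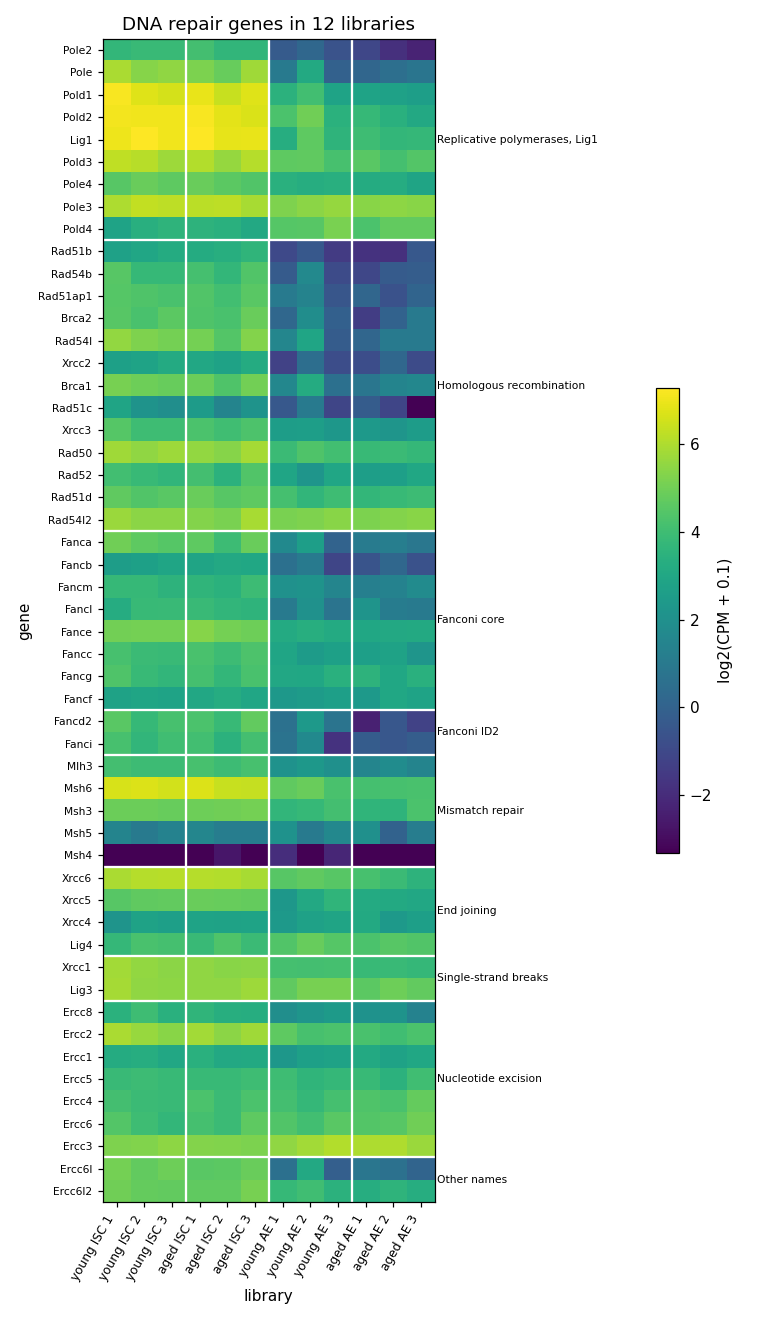
Level of 52 DNA repair genes (rows, grouped by role) in each of the 12 libraries (columns), as log2(CPM + 0.1) on a colour scale. *Fancd2os* and *Rad51ap2*, which held 0 and 1 counts in all, are among those left out. The 6 ISC libraries on the left are brighter than the 6 AE libraries for most recombination, Fanconi, mismatch and polymerase genes, while 4 of 7 excision genes passed the test at neither age and *Pold4* and *Ercc3* are brighter in AE.

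The 9 replicative genes split sharply. DNA polymerase delta, which copies the lagging strand and fills repair gaps, has a catalytic subunit (*Pold1*), an accessory subunit that holds it (*Pold2*), a subunit that binds the sliding clamp PCNA (*Pold3*) and a small regulatory subunit (*Pold4*). *Pold1* was at 147, 107 and 96 CPM in young ISC and 122, 84.3 and 109 CPM in aged ISC, against 11.3, 16.9 and 7.02 CPM in young AE and 7.04, 6.54 and 6.00 CPM in aged AE (chromosome 7, 44532746 to 44548849). *Pold2* was at 138, 132 and 131 CPM in young ISC and 146, 114 and 103 CPM in aged ISC, against 19.3, 31.8 and 10.9 CPM in young AE and 13.6, 10.6 and 8.29 CPM in aged AE (chromosome 11, 5872180 to 5878292). All AE libraries were below all ISC libraries for both, and the log2 fold changes of AE over ISC in young and aged mice, with their standard errors (SE), were -3.33 (SE 0.34, FDR = 0.000245) and -4.08 (SE 0.20, FDR = 3.96e-07) for *Pold1*. For *Pold2* they were -2.70 (SE 0.36, FDR = 0.000592) and -3.55 (SE 0.23, FDR = 1.18e-06). *Pold3* fell less, by 1.53 and 1.64 on the log2 scale.

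*Pold4* (chromosome 19, 4231899 to 4233631) went the other way. *Pold4* was at 6.95, 10.3 and 12 CPM in young ISC and 11.5, 10.5 and 8.26 CPM in aged ISC, against 22.2, 22.7 and 35.4 CPM in young AE and 19.3, 26.3 and 26.4 CPM in aged AE, so that every AE library was above every ISC library. It was 1.46 (SE 0.28, FDR = 0.00302) on the log2 scale in young and 1.17 (SE 0.21, FDR = 0.000702) in aged mice, and was called higher in each of the 6 fits at each age that left out 1 library. Per kb of exon, the level of *Pold4* in a library was 0.198 to 0.521 times that of *Pold1* in ISC and 5.61 to 21 times in AE, a pair that was chosen after the values were seen. Its annotated exons share 24.6% of their bases with *AC109138.7* on the same strand, so counts of the gene pair are uncertain there.

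To show what lies in front of these 4 subunits, which encode parts of 1 enzyme and moved in opposite directions, the stretch from 250 bases upstream of the RefSeq start to the first annotated exon is printed from GRCm38.p6. The *Brca2* stretch is added as the member with an E2F-type match among the genes of large fall described here. Sequences run 5′ to 3′ on the strand of the gene. They cover chr7:44548850-44549065 (minus strand) for *Pold1*, chr11:5878293-5878506 (minus strand) for *Pold2*, chr7:100121566-100121752 (minus strand) for *Pold3*, chr19:4231643-4231892 (plus strand) for *Pold4* and chr5:150522371-150522620 (plus strand) for *Brca2*. Capitals mark matches, on either strand, to 4 motifs: an E2F type (TTTCCCGC, TTTCGCGC or TTTGGCGC), the CCAAT box (CCAAT), the cell cycle element CHR (TTTGAA) and the GC box (GGGCGG).
Pold1: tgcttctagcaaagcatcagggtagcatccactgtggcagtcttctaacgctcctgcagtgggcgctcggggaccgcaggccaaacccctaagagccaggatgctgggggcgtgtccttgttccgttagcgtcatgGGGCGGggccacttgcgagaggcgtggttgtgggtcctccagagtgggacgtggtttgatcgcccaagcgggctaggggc
Pold2: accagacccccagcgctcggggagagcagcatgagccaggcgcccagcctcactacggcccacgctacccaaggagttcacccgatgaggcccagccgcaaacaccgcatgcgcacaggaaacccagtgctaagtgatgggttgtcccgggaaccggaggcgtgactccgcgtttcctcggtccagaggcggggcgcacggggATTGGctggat
Pold3: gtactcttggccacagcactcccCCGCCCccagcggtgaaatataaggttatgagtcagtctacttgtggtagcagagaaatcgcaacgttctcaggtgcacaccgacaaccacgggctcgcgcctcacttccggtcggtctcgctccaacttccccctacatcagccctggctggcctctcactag
Pold4: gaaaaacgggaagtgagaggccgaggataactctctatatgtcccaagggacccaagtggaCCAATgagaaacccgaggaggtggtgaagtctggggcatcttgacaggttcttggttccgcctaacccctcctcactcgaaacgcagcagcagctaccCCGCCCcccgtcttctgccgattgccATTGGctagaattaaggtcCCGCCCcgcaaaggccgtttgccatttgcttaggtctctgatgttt
Brca2: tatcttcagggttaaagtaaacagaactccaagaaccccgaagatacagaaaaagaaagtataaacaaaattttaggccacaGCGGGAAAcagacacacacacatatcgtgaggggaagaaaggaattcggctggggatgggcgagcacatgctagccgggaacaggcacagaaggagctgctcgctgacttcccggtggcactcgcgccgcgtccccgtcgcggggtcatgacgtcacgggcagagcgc

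Matches were counted in the full 250 bases upstream of each RefSeq start, which the printed stretches cover only up to the first annotated exon. Of the 57 members, 45 have such a window, with 54 windows in all, and a match in any window of a gene counted. *Pold2*, with 2 windows, thus counts for the GC box and TTTGAA, which its printed stretch does not hold. An E2F-type match was in 13.3% of them (6 genes, *Brca2*, *Fancg*, *Msh3*, *Msh5*, *Pole4* and *Xrcc6*) and in 1.78% of all 27025 genes with a window. The GC box was in 62.2% of the members and 35.4% of all genes, CCAAT in 48.9% and 37.5%, and TTTGAA in 6.67% and 18.3%. The E2F-type match was in 5 of 33 members called lower in aged AE and in 1 of 9 members that were not lower, and CCAAT in 17 of 33 and 5 of 9. Matches of different motifs that overlap were counted for each motif. These are descriptions of letters in short windows and no test of them was run.

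DNA polymerase epsilon copies the leading strand, with *Pole* as its catalytic subunit, *Pole2* as the subunit that joins it to the replicative helicase, and *Pole3* and *Pole4* as a small histone-fold pair. *Pole2* was at 12.9, 14.7 and 14.4 CPM in young ISC and 17, 12.5 and 12.5 CPM in aged ISC, against 0.737, 1.08 and 0.562 CPM in young AE and 0.381, 0.179 and 0.109 CPM in aged AE (chromosome 12, 69201773 to 69228195). In aged AE these values rested on 4, 2 and 1 counts. *Pole* was at 60.3, 40.8 and 45.3 CPM in young ISC and 36.7, 27.8 and 55.2 CPM in aged ISC, against 1.88, 8.52 and 0.873 CPM in young AE and 1.05, 1.34 and 1.64 CPM in aged AE (chromosome 5, 110286306 to 110337474). For both, every AE library was below every ISC library. *Pole2* was lower in AE by log2 fold changes of -4.22 (SE 0.32, FDR = 0.000118) in young and -5.98 (SE 0.39, FDR = 1.26e-06) in aged mice. *Pole* changed by -3.79 (SE 0.76, FDR = 0.00362) and -4.97 (SE 0.32, FDR = 1.25e-06). Without young AE library 2, in which *Pole* was at 8.52 CPM against 1.88 and 0.873 in the other young AE libraries, its change in young mice was -5.41, and without aged AE library 1 that of *Pole2* in aged mice was -6.57.

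*Pole3* and *Pole4* kept more of their level in AE. They fell by 0.76 and 1.34 on the log2 scale in young mice and by 0.75 and 1.60 in aged mice (FDR between 6.52e-05 and 0.00589). Per kb, *Pole3* was 5.99 to 8.31 times *Pole2* in ISC libraries, 56.1 to 120 times in young AE and 155 to 545 times in aged AE. *Lig1*, the ligase that seals Okazaki fragments, fell from a mean of 32.3 to 3.61 CPM per kb in young mice and from 30.9 to 3.30 in aged mice, log2 fold changes of -3.17 (SE 0.35, FDR = 0.000318) and -3.30 (SE 0.18, FDR = 6.03e-07). Per kb of exon, *Pold2* was the most abundant member in ISC at both ages, followed by *Pole3* and *Lig1*. In AE the most abundant members were *Pold4*, *Pole3* and *Ercc3*, at 23, 20.9 and 19.9 CPM per kb in young and 20.6, 21 and 21 in aged mice.

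**Figure D2:**
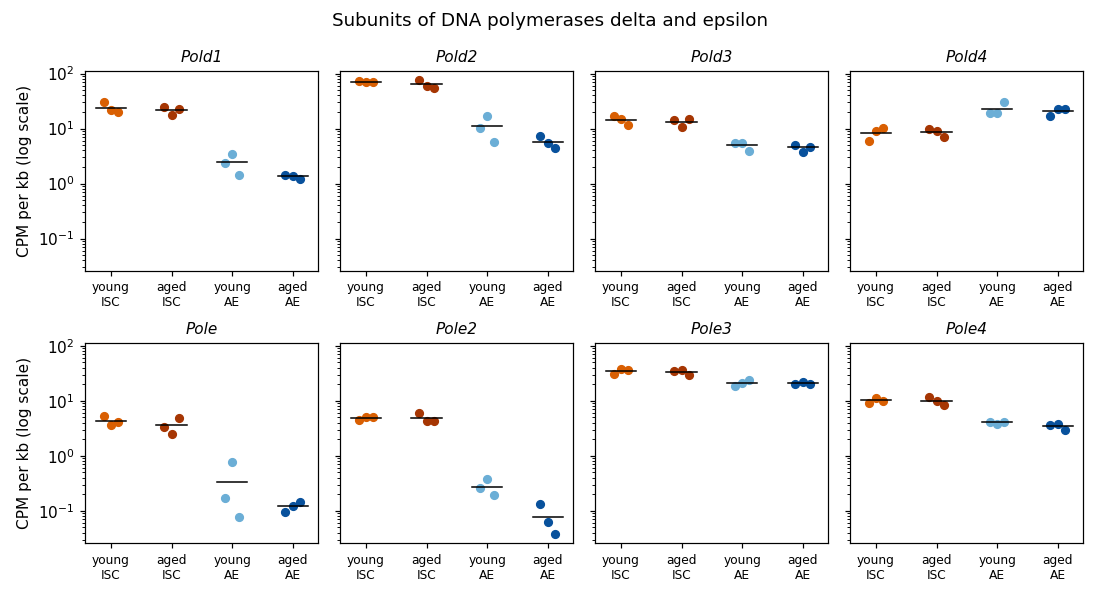
Level of each subunit of DNA polymerases delta (top) and epsilon (bottom) in CPM per kb of exon on a log axis, with a point for each library and a line at the mean of 3. The catalytic subunits *Pold1* and *Pole* and the accessory subunits *Pold2* and *Pole2* drop from ISC to AE, *Pole3* stays within a factor of 2 (means of 35.3 and 33.6 in ISC and 20.9 and 21 in AE), and *Pold4* is higher in AE.

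Homologous recombination was among the groups that fell furthest. Of its 14 members tested, 13 were called lower at both ages, with medians of -3.01 and -3.59 on the log2 scale in young and aged mice. The exception, *Rad54l2*, which was placed in this group by its name, was at -0.25 and -0.24. *Rad51b* was at 6.56, 7.67 and 9.10 CPM in young ISC and 9.23, 9.82 and 12.1 CPM in aged ISC, against 0.409, 0.662 and 0.263 CPM in young AE and 0.190, 0.179 and 0.654 CPM in aged AE (chromosome 12, 79297282 to 79814690). *Rad51b* encodes a paralog that acts early in strand exchange, and its aged AE libraries held 2, 2 and 6 counts. *Rad54b* was at 22.9, 13.5 and 13.5 CPM in young ISC and 17.7, 12.8 and 20.8 CPM in aged ISC, against 0.737, 3.06 and 0.431 CPM in young AE and 0.381, 0.717 and 0.764 CPM in aged AE (chromosome 4, 11558922 to 11615805). *Rad54b*, a helper of strand exchange, shares 35.8% of its exon bases with *Fsbp* on the same strand. Every AE library was below every ISC library for both genes, with log2 fold changes in young and aged mice of -4.27 (SE 0.44, FDR = 0.000243) and -5.03 (SE 0.43, FDR = 5.72e-06) for *Rad51b* and of -3.71 (SE 0.70, FDR = 0.00274) and -4.85 (SE 0.34, FDR = 1.81e-06) for *Rad54b*.

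The mediators of strand exchange followed. *Brca2* changed by -3.68 and -4.53, *Brca1*, a ubiquitin ligase that prepares broken ends, by -2.88 and -3.57, and *Rad51ap1*, a helper of strand invasion, by -3.72 and -4.66. *Rad54l*, a DNA translocase of strand exchange, changed by -3.50 and -4.32, and the paralogs *Xrcc2*, *Rad51c* and *Xrcc3* by -3.47, -2.48 and -1.71 in young and -3.61, -3.48 and -1.93 in aged mice.

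Members of the same pathway with roles beyond it fell less. *Rad50*, a subunit of the complex that senses breaks in every phase of the cell cycle, was the most abundant recombination gene per kb. *Rad50* was at 54.7, 46.2 and 52.3 CPM in young ISC and 47.1, 40.7 and 57.1 CPM in aged ISC, against 14.7, 20.2 and 16.7 CPM in young AE and 14.1, 15.1 and 13.4 CPM in aged AE (chromosome 11, 53649519 to 53707319). Its log2 fold changes were -1.57 (SE 0.18, FDR = 0.000354) and -1.84 (SE 0.17, FDR = 1.11e-05), with every AE library below every ISC library. *Rad52*, which binds single-stranded DNA, changed by -1.16 and -1.35 and the paralog *Rad51d* by -0.61 (FDR = 0.0291) and -0.94 (FDR = 0.000733). Per kb, *Rad51d* was 4.23 to 10.3 times *Rad51c* in ISC libraries and 7.80 to 49.9 times in the 5 AE libraries that held *Rad51c* counts. *Rad51ap2*, a testis gene by its known expression, had 1 count in 1 library, young AE 3, and 0 in the other 11.

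The young values of these genes depend on young AE library 2. Left out, it moved the young fold of 15 DNA repair genes by over 1.5 times, and the log2 fold changes of *Brca1*, *Brca2* and *Rad54l* became -4.08, -4.65 and -4.81. Those of *Rad54b*, *Rad51ap1*, *Xrcc2* and *Rad51c* became -5.07, -4.34, -4.20 and -3.50, and of genes with other roles *Lig1*, *Fanca* and *Fancb* were at -3.76, -3.96 and -3.24, with *Pole*, *Fancd2*, *Fanci* and *Ercc6l* given beside their own values. In aged mice, *Rad51b* was -5.83 and *Brca2* -5.28 without aged AE library 3, and *Rad51c* -4.43 without aged AE library 1. All of these were still below 0, and the young call was lost for *Rad51c* without young ISC library 1 and for *Rad51d* without any 1 of the 3 young ISC libraries (to -0.54).

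**Figure D3:**
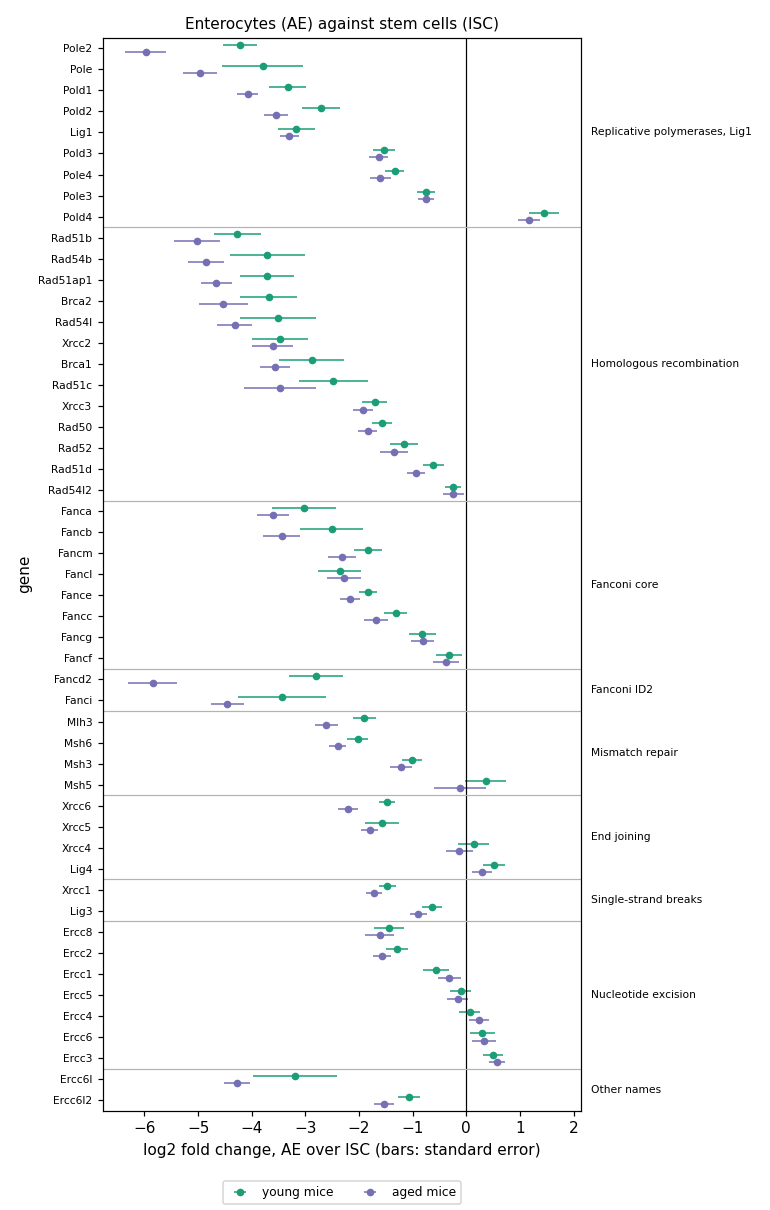
Log2 fold change of AE over ISC for 51 DNA repair genes tested at both ages, in young mice (green) and aged mice (purple), with bars of 1 standard error (SE) and genes grouped by role. Points reach -5.98 for *Pole2* and -5.85 for *Fancd2* in aged mice, 4 of 7 nucleotide excision genes and *Lig4* passed the test at neither age, and *Pold4* and *Ercc3* lie to the right of it.

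The Fanconi pathway fell at both of its levels. Both ID2 genes and 7 of the 8 core complex genes were called lower in AE at both ages. *Fancd2* was at 23.6, 13.5 and 18 CPM in young ISC and 19.3, 14.1 and 26.3 CPM in aged ISC, against 1.47, 5.05 and 1.61 CPM in young AE and 0.0951, 0.627 and 0.327 CPM in aged AE (chromosome 6, 113531682 to 113597017). Its aged AE libraries held 1, 7 and 3 counts, and 2 of them were at or under the limit of detection. *Fanci* was at 18.2, 12.7 and 16.3 CPM in young ISC and 16.8, 11.2 and 17.1 CPM in aged ISC, against 1.56, 3.14 and 0.191 CPM in young AE and 0.761, 0.627 and 0.764 CPM in aged AE (chromosome 7, 79391929 to 79450264). In both genes AE libraries were all below ISC libraries. *Fancd2* changed by -2.81 (SE 0.50, FDR = 0.00210) in young and -5.85 (SE 0.45, FDR = 3.38e-06) in aged mice, and *Fanci* by -3.44 (SE 0.82, FDR = 0.00808) and -4.45 (SE 0.30, FDR = 1.61e-06). Without young AE library 2 the young changes were -3.64 and -4.75, without young AE library 3 that of *Fanci* was -2.79, and without aged AE library 2 the aged change of *Fancd2* was -6.65.

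In the core complex, *Fanca*, a scaffold subunit, and *Fancb*, of the module that holds the ligase, fell most. *Fanca* was at 31.9, 24.8 and 22.5 CPM in young ISC and 25.3, 15.3 and 29.2 CPM in aged ISC, against 3.19, 6.12 and 0.945 CPM in young AE and 2.00, 2.24 and 1.75 CPM in aged AE (chromosome 8, 123268300 to 123318576). *Fancb* was at 5.86, 6.42 and 7.35 CPM in young ISC and 7.15, 8.26 and 7.82 CPM in aged ISC, against 1.39, 1.99 and 0.359 CPM in young AE and 0.571, 1.08 and 0.545 CPM in aged AE (chromosome X, 164980592 to 164997272). Their log2 fold changes were -3.03 (SE 0.59, FDR = 0.00330) and -3.61 (SE 0.29, FDR = 4.44e-06) for *Fanca*, and -2.51 (SE 0.59, FDR = 0.00775) and -3.44 (SE 0.35, FDR = 1.83e-05) for *Fancb*, with no overlap of AE and ISC libraries. *Fancl*, the ubiquitin ligase itself, changed by -2.36 and -2.28, and *Fancc* by -1.32 and -1.69. *Fance*, which contacts FANCD2, was the most abundant core gene per kb and *Fancm*, the DNA translocase that anchors the complex, the least.

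*Fance* was at 32, 33 and 33.4 CPM in young ISC and 41.4, 33.6 and 30.8 CPM in aged ISC, against 8.92, 9.93 and 8.85 CPM in young AE and 7.90, 8.33 and 8.51 CPM in aged AE (chromosome 17, 28313530 to 28326568). *Fancm* was at 13.8, 13.6 and 11.4 CPM in young ISC and 12.3, 10.8 and 15.5 CPM in aged ISC, against 4.01, 4.30 and 2.75 CPM in young AE and 2.28, 2.51 and 3.38 CPM in aged AE (chromosome 12, 65075603 to 65132058). The log2 fold changes were -1.83 and -2.17 for *Fance* and -1.83 and -2.31 for *Fancm* in young and aged mice, again with AE libraries all below ISC libraries. *Fancg* changed by -0.82 (SE 0.26, FDR = 0.0271) and -0.81 (SE 0.21, FDR = 0.00770), and its young call was lost without young ISC library 1 (-0.58), young ISC library 2 or young AE library 1. *Fancf*, an adaptor of the core complex, did not pass the test, at -0.32 (SE 0.24, FDR = 0.278) and -0.38 (SE 0.25, FDR = 0.196).

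Mismatch repair showed a gradient. *Msh6*, whose product takes part in recognising single mispairs, was its most abundant member per kb. *Msh6* was at 100.4, 107 and 93 CPM in young ISC and 104, 84.5 and 82.5 CPM in aged ISC, against 26, 29.2 and 18.8 CPM in young AE and 17.5, 18.1 and 18.5 CPM in aged AE (chromosome 17, 87975050 to 87990883). The log2 fold changes in young and aged mice were -2.02 (SE 0.20, FDR = 0.000207) and -2.40 (SE 0.16, FDR = 1.34e-06) for *Msh6*, and AE libraries did not overlap with ISC libraries. *Msh3*, which replaces MSH6 for larger loops, fell by only 1.01 and 1.22 on this scale, and its level per kb relative to *Msh6* was 0.108 to 0.154 in ISC and 0.179 to 0.402 in AE libraries.

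*Mlh3* acts after recognition. *Mlh3* was at 17.3, 15.5 and 15.3 CPM in young ISC and 18.2, 15.3 and 18.2 CPM in aged ISC, against 4.09, 4.96 and 3.86 CPM in young AE and 2.76, 3.50 and 2.62 CPM in aged AE (chromosome 12, 85234520 to 85270599). Values in AE were all below those in ISC, with changes of -1.90 (SE 0.22, FDR = 0.000351) and -2.61 (SE 0.22, FDR = 5.88e-06). *Msh4* and *Msh5* form a pair known for meiotic crossing over. *Msh4* was detected with 1 count in aged ISC library 2, 2 counts in young AE library 1 and 10 counts in young AE library 3, at most 0.164 CPM, and was at 0 in the other 9 libraries. *Msh5* was low but present, at 1.93 to 2.81 CPM in ISC and 0.896 to 4.17 CPM in AE, and did not pass the test at either age, at 0.36 (SE 0.39, FDR = 0.452) and -0.12 (SE 0.48, FDR = 0.839).

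End joining was divided between its end binders and its ligation step. *Xrcc5* and *Xrcc6* encode Ku80 and Ku70, the ring that threads onto broken ends. *Xrcc6* was at 60.4, 68.3 and 69.8 CPM in young ISC and 69.1, 66.7 and 60.1 CPM in aged ISC, against 23.2, 25.5 and 22.7 CPM in young AE and 18, 14.9 and 11.6 CPM in aged AE (chromosome 15, 81987835 to 82040085). *Xrcc5* was at 22.8, 26.1 and 26.6 CPM in young ISC and 29, 28.3 and 27 CPM in aged ISC, against 4.75, 8.36 and 12.1 CPM in young AE and 8.75, 8.60 and 8.07 CPM in aged AE (chromosome 1, 72307421 to 72394952). Both were lower in all AE libraries, by -1.48 (SE 0.15, FDR = 0.000239) and -2.21 (SE 0.19, FDR = 5.55e-06) for *Xrcc6* and -1.56 (SE 0.32, FDR = 0.00400) and -1.80 (SE 0.16, FDR = 7.66e-06) for *Xrcc5* in young and aged mice.

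The ligase and its partner were not called lower. *Xrcc4* was at 4.33, 6.76 and 6.18 CPM in young ISC and 7.04, 6.75 and 7.06 CPM in aged ISC, against 5.07, 6.62 and 7.27 CPM in young AE and 8.66, 5.11 and 6.33 CPM in aged AE (chromosome 13, 89774027 to 90089608), and the AE and ISC ranges overlapped at 0.14 (SE 0.29, FDR = 0.700) and -0.13 (SE 0.25, FDR = 0.667). *Lig4* was at 13.4, 18.6 and 17.6 CPM in young ISC and 14.5, 20.2 and 15.1 CPM in aged ISC, against 21, 27.9 and 22.4 CPM in young AE and 19.5, 23.2 and 21.1 CPM in aged AE (chromosome 8, 9969049 to 9977686). Every AE library was above every ISC library in young mice, while in aged mice the ranges overlapped, and neither change passed the test, at 0.52 (SE 0.21, FDR = 0.0633) and 0.29 (SE 0.19, FDR = 0.207). Its young change was called higher with library codes as a replicate block (FDR = 0.0448), with the expression filter of edgeR (filterByExpr) and in the fit on all 4 groups. Relative to *Lig1* per kb, *Lig4* was at 0.0765 to 0.140 in ISC and 0.922 to 1.80 in AE libraries.

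The 2 genes of single-strand break repair, the scaffold *Xrcc1* and its ligase *Lig3*, which is also the ligase of mitochondria, were both lower in AE. *Xrcc1* was at 55.6, 46.6 and 42.7 CPM in young ISC and 46, 42.5 and 42.9 CPM in aged ISC, against 17.8, 17 and 17.5 CPM in young AE and 14.2, 14.3 and 13.3 CPM in aged AE (chromosome 7, 24546289 to 24573440). *Lig3* was at 57.4, 45.4 and 45 CPM in young ISC and 45.8, 45.3 and 52.3 CPM in aged ISC, against 25.9, 34 and 34.6 CPM in young AE and 24.2, 30.5 and 26.3 CPM in aged AE (chromosome 11, 82781108 to 82804274). AE libraries were all below ISC libraries in both. The changes were -1.47 (SE 0.17, FDR = 0.000345) and -1.72 (SE 0.15, FDR = 5.68e-06) for *Xrcc1* and -0.64 (SE 0.18, FDR = 0.0188) and -0.90 (SE 0.16, FDR = 0.000677) for *Lig3*, whose young call was lost without young ISC library 1 (-0.52). Of the exon bases of *Lig3*, 25.1% lie opposite *Rffl*, and whether the counting used strand is not given in the sources used here.

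Of the 7 nucleotide excision repair members, 2 were called lower in AE (28.6%), 1 higher and 4 neither, at both ages alike, beside 25.4% and 34.1% of all genes called lower in young and aged mice. Their median log2 fold changes were -0.11 and -0.16, beside 0.15 and -0.13 over all genes. The other genes of the pathway did differ, since 7 and 9 of 12 excision helpers were called lower, with medians of -0.71 and -1.01. *Ercc3* and *Ercc2* encode XPB and XPD, the helicases of transcription factor TFIIH, which opens DNA both at promoters and at lesions. *Ercc3* was at 37.5, 38.2 and 43.9 CPM in young ISC and 39.2, 38.4 and 36.7 CPM in aged ISC, against 46.2, 55.4 and 67.3 CPM in young AE and 62.4, 65.6 and 50.9 CPM in aged AE (chromosome 18, 32240300 to 32270151). *Ercc2* was at 61.4, 50.1 and 42.2 CPM in young ISC and 56.5, 43.1 and 54.2 CPM in aged ISC, against 25, 18.4 and 19.2 CPM in young AE and 18.7, 16.1 and 19.5 CPM in aged AE (chromosome 7, 19382010 to 19395694). Every AE library was above every ISC library for *Ercc3* and below every ISC library for *Ercc2*. The change of *Ercc3* was 0.50 (SE 0.18, FDR = 0.0463) in young and 0.58 (SE 0.15, FDR = 0.00827) in aged mice. The young call did not hold with DESeq2 (0.50), with upper-quartile scaling (0.37), without a filter on low counts (0.50), or with any young library other than AE 1 left out (lowest 0.29, without young AE library 3), while the aged call held in all 13 alternatives.

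*Ercc2* changed by -1.30 (SE 0.21, FDR = 0.00128) and -1.57 (SE 0.16, FDR = 2.00e-05). Of its exon bases, 42.4% lie opposite other genes, mainly *Klc3*. Per kb, *Ercc3* was 0.900 to 1.53 times *Ercc2* in ISC libraries and 2.72 to 5.98 times in AE libraries. *Ercc8* encodes CSA, a ubiquitin ligase subunit that acts where RNA polymerase stalls. *Ercc8* was at 10.8, 15.8 and 10.7 CPM in young ISC and 12.1, 9.82 and 9.68 CPM in aged ISC, against 3.68, 4.47 and 5.47 CPM in young AE and 4.09, 4.21 and 2.51 CPM in aged AE (chromosome 13, 108158731 to 108195364). Its AE libraries were all below its ISC libraries, by -1.44 (SE 0.27, FDR = 0.00288) and -1.61 (SE 0.27, FDR = 0.000498).

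The nucleases *Ercc4* and *Ercc5*, which cut on either side of a lesion, did not pass the test at either age. The same held for *Ercc1*, the partner of *Ercc4*, and for *Ercc6* (CSB), the remodeller at stalled polymerases. *Ercc1* was at 9.11, 9.54 and 8.08 CPM in young ISC and 10.5, 8.26 and 8.62 CPM in aged ISC, against 4.75, 6.37 and 6.87 CPM in young AE and 8.56, 6.81 and 7.85 CPM in aged AE (chromosome 7, 19344778 to 19356524). All young AE libraries of *Ercc1* were below all young ISC libraries while the aged ranges overlapped, at -0.57 (SE 0.24, FDR = 0.0832) and -0.31 (SE 0.21, FDR = 0.220), and the young change was called lower with upper-quartile scaling and in the fit on all 4 groups. *Ercc4* was at 17.1, 14.9 and 14.6 CPM in young ISC and 19.4, 15 and 19.3 CPM in aged ISC, against 17.4, 13.2 and 17.9 CPM in young AE and 20.6, 18.9 and 27.4 CPM in aged AE (chromosome 16, 13109684 to 13150617). The ISC and AE ranges of *Ercc4*, the partner of *Ercc1*, overlapped, at 0.06 (SE 0.20, FDR = 0.810) and 0.24 (SE 0.19, FDR = 0.289). *Ercc5* was at -0.11 and -0.16 and *Ercc6* at 0.30 and 0.33. *Ercc6l*, which shares a name with this group but encodes the mitotic helicase PICH, fell with the dividing-cell genes. *Ercc6l* was at 33.6, 26.5 and 30.8 CPM in young ISC and 23.7, 24.4 and 29 CPM in aged ISC, against 1.39, 8.36 and 0.825 CPM in young AE and 1.71, 1.43 and 0.982 CPM in aged AE (chromosome X, 102141716 to 102157091). *Ercc6l2* was at 31.9, 27.3 and 26.2 CPM in young ISC and 25.8, 25.9 and 33.9 CPM in aged ISC, against 13.7, 16 and 11.1 CPM in young AE and 9.61, 11.7 and 9.60 CPM in aged AE (chromosome 13, 63815240 to 63900302). All AE libraries were below all ISC libraries, with changes of -3.19 (SE 0.78, FDR = 0.00910) and -4.27 (SE 0.25, FDR = 7.33e-07) for *Ercc6l* (-4.98 in young mice without young AE library 2 and -3.81 with the replicate block) and -1.07 and -1.54 for *Ercc6l2*. *Fancd2os*, named as the opposite strand of *Fancd2*, had 0 counts in all 12 libraries.

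Transcripts of dividing cells fell in the same comparisons. The 6 genes *Mcm2* to *Mcm7*, which license replication origins, had median log2 fold changes of -3.67 and -4.66, and the 12 proliferation markers -2.90 and -4.35. Medians by role were -2.70 and -3.30 for replicative polymerases and *Lig1*, -3.01 and -3.59 for recombination, -3.12 and -5.15 for ID2, -1.83 and -2.23 for the Fanconi core, -1.20 and -2.16 for mismatch repair (-1.55 in young mice without *Msh4*, which held 10 counts in young AE library 3 and 0 to 2 in the other 11 libraries), -1.06 and -1.31 for single-strand break repair, -0.67 and -0.96 for end joining and -0.11 and -0.16 for nucleotide excision. The part of dividing-cell or other crypt-cell content in the falls of the repair genes was not tested. In aged mice, 20 members were lower in AE by over 8-fold and 12 by over 16-fold, and in young mice 14 by over 8-fold.

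Most of 90 other DNA repair genes were also lower in AE. Of these, 67 were called lower and 3 higher in young AE, and 72 lower and 3 higher in aged AE, with medians of -1.43 and -1.62. All 9 genes of mismatch repair and of the replication clamp outside the member names, among them *Pcna* and *Rfc4*, were lower at both ages, and so were 16 and 17 of 17 damage signalling genes, with *Chek1*, the checkpoint kinase, at -3.62 (FDR = 0.000853) and -5.49 (FDR = 7.54e-07). Of 20 recombination helpers 17 were lower at both ages, and the nuclease *Exo1* changed by -3.46 (FDR = 0.00928) and -6.02 (FDR = 4.53e-07). Base excision genes were lower in 10 and 12 of 16, with the uracil glycosylase *Ung* at -4.11 (FDR = 0.00134) and -5.22 (FDR = 6.78e-07), and the excision helpers were given above. Of the direct reversal genes, *Mgmt*, which strips alkyl groups from guanine, changed by -3.68 (FDR = 0.000282) and -4.91 (FDR = 2.17e-05).

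Among those called higher were *Paxx*, a helper of Ku, at both ages, at 1.35 (FDR = 0.00458) and 1.19 (FDR = 0.000198), *Slx4*, a scaffold of nucleases, in young mice, at 0.92 (FDR = 0.0125) against 0.63 (FDR = 0.0553) in aged mice, and *Xpa*, which verifies bulky lesions, in aged mice, at 0.54 (FDR = 0.0384) against 0.46 (FDR = 0.172) in young mice. End joining helpers were called lower in 2 of 6 (33.3%) and higher in 1 of 6 at both ages, and translesion polymerases lower in 4 of 7 (57.1%). Of all genes, 25.4% in young and 34.1% in aged mice were called lower, and 27.7% and 30.0% higher. The share of end joining helpers called lower was thus near that of all genes.

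Aged ISC were compared with young ISC to see whether repair genes shift with age in the stem cell. None of the 54 members tested was called by edgeR, none had an unadjusted P under 0.05, and DESeq2 called 0. Of all 15552 genes, edgeR called 0% lower and 0% higher, 4.47% had an unadjusted P under 0.05, and DESeq2 called 47 lower and 11 higher. The median change of members was 0.01, as was that of all genes, and members ranged from -0.30 for *Rad54l* to 0.42 for *Rad51b*. Summed over members, ISC libraries held 1747 to 1974 CPM in young and 1602 to 1928 CPM in aged mice. No member had all 3 aged libraries below the 3 young ones, and 4 had them above, where 4.44% and 4.42% of all genes did.

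These 4 members were *Rad51b*, *Fancf*, *Msh3* and *Xrcc5*. *Rad51b* was at 6.56, 7.67 and 9.10 CPM in young and 9.23, 9.82 and 12.1 CPM in aged ISC, a log2 difference of 0.42 (SE 0.22, FDR = 1.000). The gap between the groups was thus narrow, and the 3 other genes were at 0.26, 0.13 and 0.17. By role, medians lay between -0.11 for the genes that only share a name and 0.10 for the Fanconi core. *Mcm2* to *Mcm7* were at a median of -0.29 and proliferation markers at 0.10 in the same comparison, with none called. On simulated counts made from these ISC libraries with 15258 genes, the test recovered 88 of 100 genes changed 4-fold and 35 of 100 changed 2-fold.

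**Figure D4:**
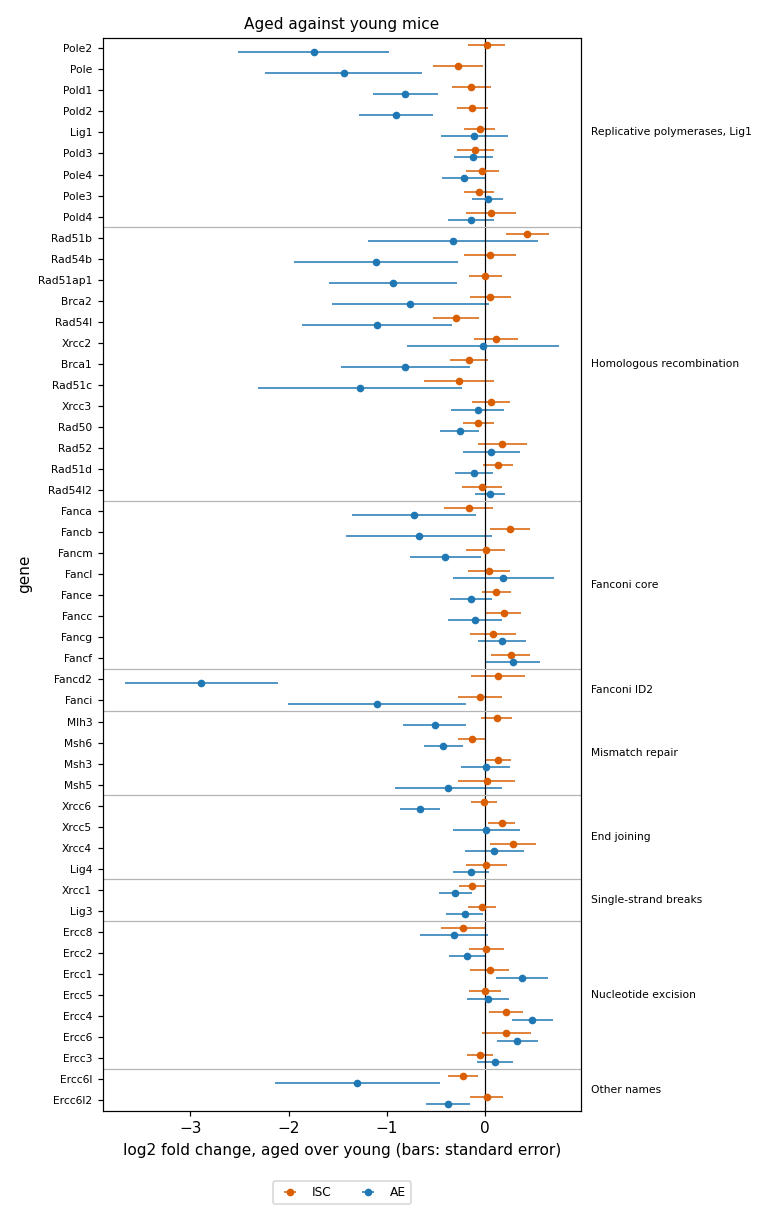
Log2 fold change of aged over young mice for the same 51 DNA repair genes in ISC (orange) and AE (blue), with bars of 1 standard error (SE) and genes grouped by role. ISC points stay between -0.30 and 0.42, while AE points reach -2.89 for *Fancd2* and -1.74 for *Pole2* with wide bars and lie near 0 for *Lig1* (-0.11), *Pole3* (0.02) and *Xrcc2* (-0.02), and none passed the test in either cell type.

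The same question was asked of AE. None of 55 members was called by edgeR or by DESeq2, and 7 had an unadjusted P under 0.05 in edgeR's test, against 4.97% of all 16265 genes (0% called lower and 0% higher). Over all 16265 genes, DESeq2 called 6 lower and 12 higher. The median change was -0.31 over members (-0.28 without *Msh4*) and -0.04 over all genes. Of 55 members 41 lay below 0, a share that was not computed over all genes. In 9 members all aged libraries were below all young libraries and in 1 above, where 6.94% and 4.01% of all genes were so. Among the 7 were *Fancd2*, *Pole2*, *Pold1*, *Pold2* and *Xrcc6*, all with log2 fold changes of aged over young below 0, and *Ercc4*, above 0. Among the 9 were *Fancd2*, *Fance*, *Mlh3*, *Msh6*, *Xrcc6*, *Xrcc1*, *Pole2* and *Pole4*, and the 1 above was *Ercc4*.

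*Fancd2* led them, at 1.47, 5.05 and 1.61 CPM in young and 0.0951, 0.627 and 0.327 CPM in aged AE, so that the lowest young library was above the highest aged one. Its log2 fold change was -2.89 (SE 0.78, FDR = 0.833), and between -3.66 and -2.09 with single libraries left out. *Pole2*, at 0.737, 1.08 and 0.562 CPM in young and 0.381, 0.179 and 0.109 CPM in aged AE, was at -1.74 (SE 0.77, FDR = 0.833). None of these passed the test. *Xrcc6* was at -0.66 (SE 0.20, FDR = 0.833), from 22.7 to 25.5 CPM in young to 11.6 to 18.0 CPM in aged AE. The polymerase subunits *Pold1* and *Pold2* were at -0.82 (SE 0.33, FDR = 0.833) and -0.91 (SE 0.38, FDR = 0.833), with aged and young libraries overlapping, and at -0.45 and -0.44 without young AE library 2. *Ercc4* was the member with the highest log2 fold change, 0.48 (SE 0.21, FDR = 0.833), from 13.2 to 17.9 CPM in young to 18.9 to 27.4 CPM in aged AE.

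The AE values are set here beside the crypt-cell transcripts of single libraries. Young AE library 3 held the lowest sum of proliferation markers, 51.5 CPM, against 80.0 to 84.8 CPM in aged AE. There *Fancd2* and *Xrcc6* (1.61 and 22.7 CPM) were above all aged AE libraries, and *Fanci* (0.191 CPM) was below them. Young AE library 2 held the highest level among the 6 AE libraries for 31 of 55 members (56.4%) and for 22.3% of all genes tested. By role it did so for 11 of 14 recombination genes, 6 of 9 replicative genes, both ID2 genes, 4 of 8 Fanconi core genes, 4 of 7 mismatch repair genes and 0 of 7 nucleotide excision genes. The ID2 pair summed to 8.19 CPM there, 3.03 and 1.81 CPM in the other young and 0.856 to 1.25 CPM in the aged AE libraries. Without it the median of members was -0.11 and 2 members had an unadjusted P under 0.05. Without the deepest library, young AE 3, 16 members did, and so did 2071 of 14848 genes, against 809 of 16265 with all libraries. With any other AE library left out 2 to 4 members did, and 418 to 736 genes. Proliferation markers themselves had a median of -1.29 in AE and *Mcm2* to *Mcm7* of -1.26, with none called. The part of crypt cells, dividing or not, in the AE values was not tested.

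**Figure D5:**
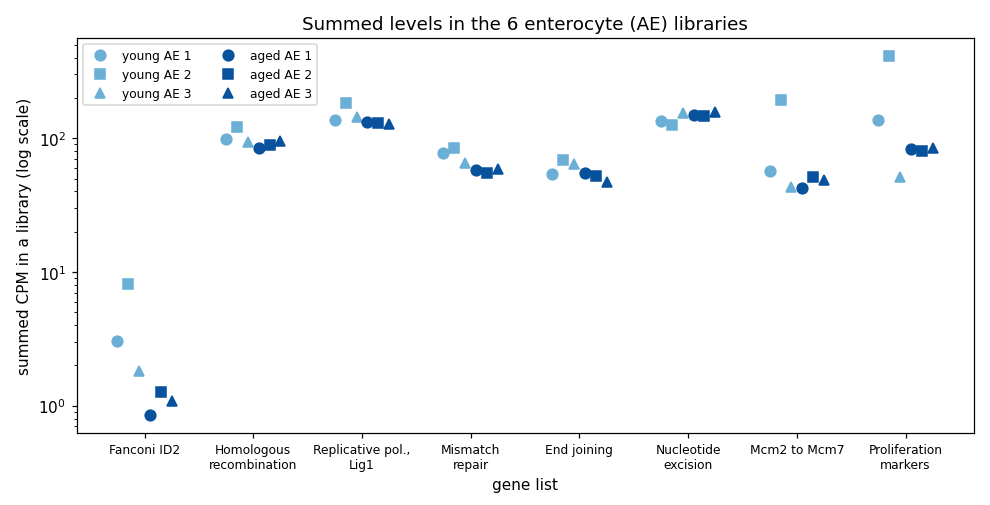
Summed CPM of groups of DNA repair genes, of *Mcm2* to *Mcm7* and of 12 proliferation markers in each of the 6 AE libraries, on a log axis, with young libraries in light and aged libraries in dark blue. Young AE library 2 (light square) is highest for ID2 (8.19 CPM), *Mcm2* to *Mcm7* (194 CPM) and proliferation markers (414 CPM), while sums of nucleotide excision genes lie between 127 and 156 CPM in all 6.

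Whether age acts differently in the 2 cell types was tested as an interaction over all 12 libraries. None of 55 members was called by edgeR, where 0% of 17377 genes were called lower and 0.00575% (1 gene) higher. An unadjusted P under 0.05 was seen for 5 members and for 4.36% of all genes. Among these were *Fancd2* with a difference of age effects, AE minus ISC, of -2.97 (SE 0.78, FDR = 0.782), *Pole2* with -1.69 (SE 0.53, FDR = 1.000), *Xrcc6* with -0.66 (SE 0.23, FDR = 1.000) and *Mlh3* with -0.63 (SE 0.28, FDR = 1.000). DESeq2 called 1 member, *Fancd2*, at -2.98 with FDR = 0.0492, against FDR = 0.782 in edgeR's test. Over all 17377 genes, DESeq2 called 3 lower and 40 higher. Without young AE library 3, 18 members and 1642 of 16573 genes had an unadjusted P under 0.05. With any other library left out, 3 to 6 members and 491 to 864 genes did. The absolute change of AE over ISC was larger in aged than in young mice for 45 of the 54 members tested at both ages. Of all genes, 34.1% and 30.0% were called lower and higher in aged AE, against 25.4% and 27.7% in young AE. The share of all genes with a larger change in aged mice was not computed, so this count cannot be read as particular to repair genes. As both of those comparisons enter this interaction, this count is another view of it and not further support.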

How the data were processed

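The authors trimmed reads with Trim Galore 0.4.4, aligned them to GRCm38 with HISAT2 2.1.0 and deposited raw counts per gene of uniquely mapped reads over merged exons, from a directional poly(A) kit. Whether counting used strand is not given in the sources used here. A second deposited table, of the authors' own comparisons (log2 values and FDR), was not used.

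Counts were tested with edgeR 4.0.16 in R 4.3.3 (TMM, glmQLFit and glmQLFTest) on all genes whose counts summed to 10 or more in the libraries compared, with Benjamini-Hochberg FDR under 0.05 over all genes. Only the libraries of the comparison were fitted, and all 12 for the difference of age effects. The script was tested on simulated counts. Levels per kb used merged exon lengths of GENCODE M21. Promoter windows came from RefSeq GRCm38.p6. Totals were 11893817 to 110794420 counts. Libraries of a group differed by more than sampling noise (chi-square per degree of freedom 31.2 to 258).

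Libraries of the same code in ISC and AE deviated together from their group means (correlations of 0.121 to 0.287 over 6 pairs, against -0.214 to 0.0583 over 12 other pairs), so the code was taken as a pairing and a replicate block was fitted as 1 alternative.

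Members and lists were chosen with earlier results of these data known. All libraries' values are given for the 2 members of each role with the largest change in aged mice, those higher in AE, those with an unadjusted P under 0.05 by age, and the most and least abundant per kb of each role. Some genes that these rules pick are not reported here. Values of other genes were chosen after they were seen. Alternatives were DESeq2 1.42.0, other scalings (RLE, upper quartile), no filter or filterByExpr, 1 fit to all 4 groups, the block, and leaving out each library.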

Additional observations from a re-analysis of the deposited data

How the results depend on the processing

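Members called lower in AE numbered 43 at both ages with the replicate block, which gave 3 higher in young and 2 higher in aged mice. For the difference of age effects the block gave 0 calls among members, and 0 lower and 21 higher among all 17377 genes. The number of members called higher in young AE fell to 1 with upper-quartile scaling, with DESeq2 and without a filter, since *Ercc3* was no longer called, and was 1 to 2 with single libraries left out. Leaving out single libraries gave 39 to 43 lower in young mice, 43 lower and 2 to 3 higher in aged mice, and 0 calls by age. DESeq2 called 1 member lower in the difference of age effects, *Fancd2*, where it called 3 of all 17377 genes lower and 40 higher. Upper-quartile scaling moved the median of all genes in young mice by -0.122. For the 32 genes that the naming rule picks, 1992 of 2002 alternative values kept direction and side of the threshold, 9 were no longer called (8 of *Ercc3* and 1 of *Lig3* in young mice), 1 was newly called and 0 reversed. The causes were not tested. Recovery of simulated 2-fold changes was 12 of 100 genes for AE against ISC in young mice and 4 of 100 for the difference of age effects. In the simulation for young mice 200 of 16296 genes were changed, while 4241 genes were called lower and 4623 higher in the real fit. The 12 of 100 thus does not give the sensitivity of AE against ISC. For the difference of age effects, changes of that size were often not detectable in the simulation.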
